A study of Mus musculus with 2 samples.

Results

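The 3 mouse genes of the miR-7 family, Mir7-1, Mir7-2 and Mir7b, were followed together with Mir671. They were chosen by gene name and not by a rule on their values, though earlier results of these data were known. They are 4 of the 2202 miRNA genes counted. MicroRNA (miRNA) sequencing, of RNA shorter than 30 bases, gave 2 libraries whose tissue is labelled layer of hippocampus. The source was male, at 25 days of age, of B6CASTF1/J, a hybrid mouse strain. The libraries are biological replicates 1 and 2 of 1 group with no treatment. They have separate biosample entries but share 1 donor entry. Whether they came from separate animals is not settled by the labels, so the spread between them may be partly or fully technical. No second genotype, treatment or tissue was included, so the data allow the levels of these genes to be set against each other and the 2 libraries to be compared.

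These miRNAs are joined by the circular RNA Cdr1as, which is abundant in neurons of the mammalian brain. Cdr1as carries many matches to the miR-7 seed, the bases near the 5′ end through which a miRNA finds its targets. miR-671 pairs almost fully with a single place in Cdr1as and directs its cleavage. Cyrano, a long noncoding RNA known in the mouse as Oip5os1, pairs extensively with miR-7 and triggers the decay of this miRNA. miR-7 itself is best known from neuroendocrine tissue such as the pituitary, the hypothalamus and the pancreatic islets.

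Mature sequences of all 4 genes were found in RefSeq (GRCm38.p6). They are shown because they decide both what each gene can target and how well its reads can be told from those of the others. Capitals mark the seed, bases 2 to 8 from the 5′ end.
mmu-miR-7a-5p, from both Mir7-1 and Mir7-2: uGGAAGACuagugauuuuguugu
mmu-miR-7b-5p, from Mir7b: uGGAAGACuugugauuuuguuguu
mmu-miR-671-5p, from Mir671: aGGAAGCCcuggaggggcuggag
mmu-miR-7a-1-3p, from Mir7-1: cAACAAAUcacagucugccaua
mmu-miR-7a-2-3p, from Mir7-2: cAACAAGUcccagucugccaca
mmu-miR-7b-3p, from Mir7b: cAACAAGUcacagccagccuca
mmu-miR-671-3p, from Mir671: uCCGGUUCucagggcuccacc

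miR-7a-5p and miR-7b-5p shared the seed GGAAGAC, which no other of the 1679 mature mouse names in that table had. Over the 23 bases compared they differed at 1 position, A10U, counted from 1 at the 5′ end with the miR-7a base first. miR-671-5p differed from them inside the seed at 1 position, A7C, and only 7 of 23 bases matched miR-7a-5p. Its base composition also stood apart, with 69.6% G and C, whereas miR-7a-5p had 34.8% and miR-7b-5p 33.3%. The 3p strands of the miR-7 genes were less alike. miR-7a-1-3p and miR-7a-2-3p matched at 19 of 22 bases, with a seed difference at A7G, while miR-7a-2-3p and miR-7b-3p had the same seed.

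The 4 genes lie on 4 chromosomes, in different surroundings (mm10, GENCODE M21). Mir7-1 (ENSMUSG00000065434.1) is at chr13:58392779-58392886 on the minus strand, in an intron of Hnrnpk, the gene of an RNA-binding protein, and in the same direction. Mir7-2 (ENSMUSG00000065609.1) is at chr7:78888277-78888373 on the plus strand and overlaps no annotated gene. The nearest gene is Aen, 7481 bases away. Mir7b (ENSMUSG00000065491.1) is at chr17:56242988-56243098 on the plus strand, also between genes, 183 bases past the end of the noncoding gene AC026385.1. Mir671 (ENSMUSG00000076387.1) is at chr5:24592114-24592211 on the plus strand, inside a coding exon of Chpf2, a gene of chondroitin sulfate synthesis, and an exon of Smarcd3 covers the same place on the other strand. No other miRNA gene lay within 10 kb of any of them.

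The target side was read from the reference. Cdr1as is transcribed opposite the gene Cdr1. The annotated transcript of Cdr1 covers 1554 bases at chrX:61184005-61185558 on the minus strand, and the plus strand of that stretch was searched as the part of Cdr1as that the transcript sequences hold. The letters GTCTTCC, the match to the shared seed of miR-7a-5p and miR-7b-5p, occurred 79 times on the plus strand and 0 times on the minus strand. Of the 78 distances between neighbouring matches, 72 were 18 bases, and the longest was 72 bases. Over the first 1554 bases of the longest transcript of 23496 genes, 30.5% held GTCTTCC on either strand. Apart from Cdr1, 2 genes had 10 or more on 1 strand, the highest being Naf1 with 11, a gene named because of this count. The match to the miR-671-5p seed, GGCTTCC, occurred 0 times on either strand of the stretch and in 33.8% of the same windows of all genes on either strand. That says only that these letters are not in this window, since the rest of Cdr1as was not used here.

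**Figure D1:**
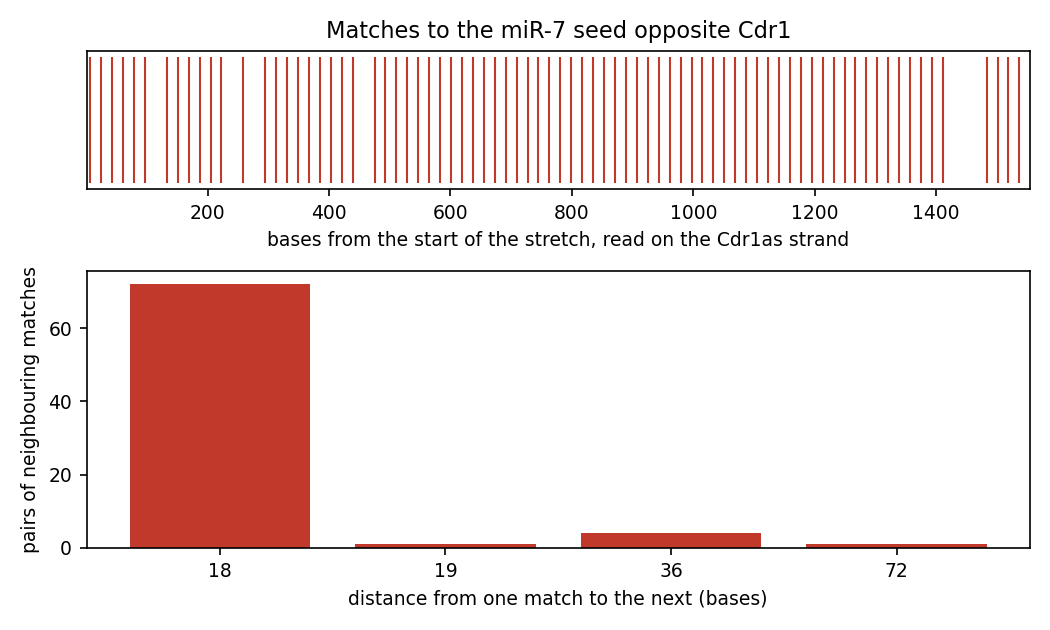
Top, each line is 1 of 79 matches to the miR-7 seed (GTCTTCC) along 1554 bases opposite Cdr1, with the position in bases from the start of the stretch on the x axis. Bottom, bars give the number of neighbouring matches at each distance in bases, and 72 of 78 distances are 18 bases.

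The following sites show what the repeats look like beside the Cyrano site. They are written 5′ to 3′ on the RNA's strand (mm10, plus strand), with the match to seed bases 2 to 8 in capitals.
Cdr1as strand, most frequent unit, chrX:61184181-61184198: gaaaatccaaGTCTTCCc
Cdr1as strand, closest to miR-7a-5p, chrX:61184032-61184054: tcctgaaaatccaccGTCTTCCa
Cyrano, chr2:119602136-119602161: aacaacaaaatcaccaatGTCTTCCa

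The most frequent unit of 18 bases was seen 22 times. Next to the seed match, 70 of the 79 sites had the base that pairs with base 9 of the miR-7 miRNAs. At base 10, the position where miR-7a-5p and miR-7b-5p differ, 66 sites had the base that pairs with miR-7b-5p and 0 had the base that pairs with miR-7a-5p. The longest stretch of unbroken complementarity was 10 bases for miR-7b-5p and 9 bases for miR-7a-5p. The site closest to miR-7a-5p paired at 15 of its 23 bases without gaps. In Cyrano, annotated in GENCODE M21 as 1700020I14Rik, a transcript of 8300 bases held GTCTTCC 2 times, and 49.5% of the 937 genes with a transcript that long had it on the transcript's strand within the first 8300 bases (79.7% on either strand). The Cyrano site differed from the Cdr1as repeats in its second block. ACAACAAAATCAC, the complement of the last 13 bases of miR-7a-5p, ended 4 bases before the seed match, and for miR-7b-5p this run was 14 bases. With at most 6 bases between the 2 blocks, a search of both strands of the longest transcript of 55450 genes found this pair in 4 genes, namely 1700020I14Rik and, as the complements of their own miRNAs, Mir7-1, Mir7-2 and Mir7b. ACAACAAAATCAC alone was in 0.320% of the 937 windows on either strand. These matches describe the letters and were not measured as binding.

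How much of each miRNA was counted in the hippocampus? Mir671 and Mir7b were well expressed. The 2 miR-7a genes had far lower counts, which leave out reads that aligned to both of them. Levels are read counts on the strand of the gene per 1000000 gene-assigned counts (CPM). The gene-assigned counts were 5183641 in replicate 1 and 5871233 in replicate 2, and a count of 0 would allow up to 0.579 and 0.511 CPM. All 4 genes reached 10 counts in each library, the minimum for detection here, as did 445 of the 2202 genes. Intervals are exact 95% intervals of the counts, and intervals and limits cover counting error only.

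Mir671 had 13337 counts in replicate 1 and 18992 in replicate 2. These are 2573 CPM (2529 to 2617) and 3235 CPM (3189 to 3281), a mean of 2904 ± 468 CPM (SD, n = 2). It ranked 54 among all genes by mean CPM, at 58 and 49 in replicates 1 and 2. Mir7b had 11397 and 18663 counts in replicates 1 and 2. These are 2199 CPM (2159 to 2239) and 3179 CPM (3133 to 3225), a mean of 2689 ± 693 CPM (SD, n = 2). Its rank by mean CPM was 58, just behind Mir671.

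Mir7-2, whose loss in mice disturbs pituitary hormones and fertility, had 687 counts in replicate 1 and 1009 in replicate 2. That is 133 CPM (123 to 143) and 172 CPM (161 to 183), with a mean of 152 ± 27.8 CPM (SD, n = 2) and rank 181. Mir7-1, the intronic gene, was the lowest, with 231 and 439 counts in replicates 1 and 2. Its level was 44.6 CPM (39.0 to 50.7) in replicate 1 and 74.8 CPM (67.9 to 82.1) in replicate 2, with a mean of 59.7 ± 21.4 CPM (SD, n = 2) and rank 214. Its mean was close to the median of the detected genes, 51.2 CPM. All 4 genes were higher in replicate 2 than in replicate 1, and no interval of one library overlapped that of the other for the same gene. How many of all genes had intervals that did not overlap was not counted. By an exact binomial test, 242 of the 291 genes whose counts averaged 100 or more differed between the libraries, 160 of them lower in replicate 1.

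**Figure D2:**
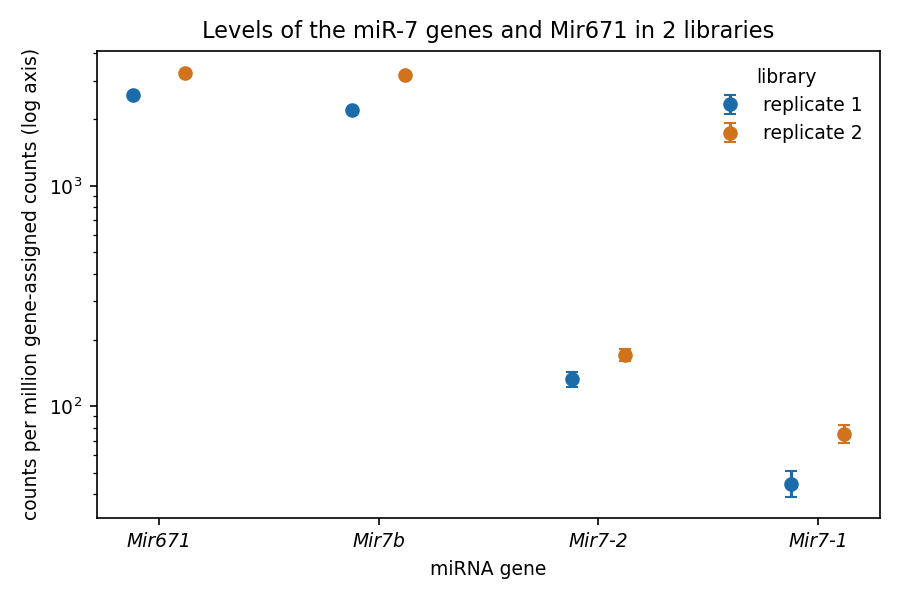
Points give the level of each gene in CPM (log axis) in replicate 1 (blue) and replicate 2 (orange), and bars give the exact 95% counting interval, which is smaller than the point for Mir671 and Mir7b. Mir671 and Mir7b lie between 2199 and 3235 CPM, Mir7-2 at 133 and 172 CPM and Mir7-1 at 44.6 and 74.8 CPM.

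**Figure D3:**
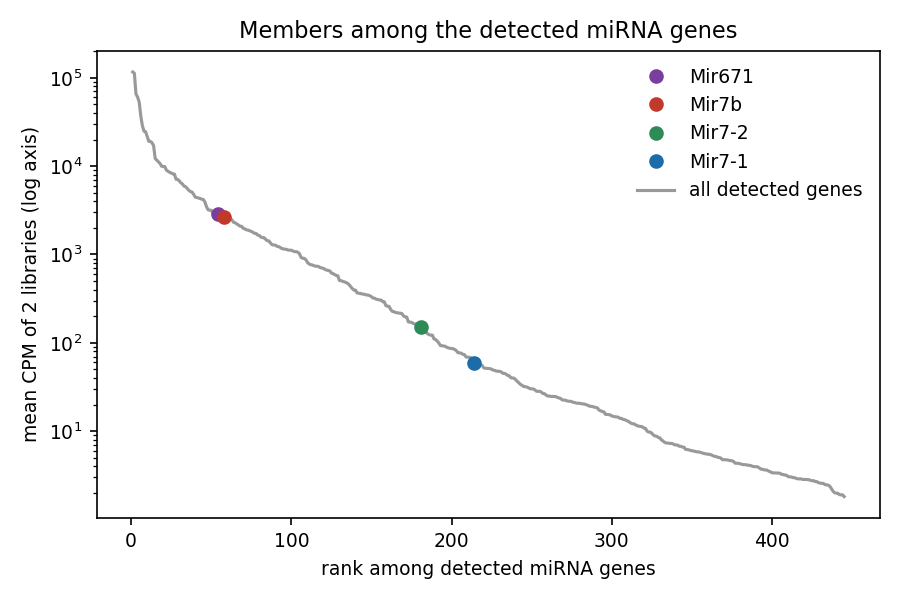
The grey line gives the mean CPM of 2 libraries (log axis) of the 445 detected miRNA genes in order of level, and coloured points mark the 4 genes. Mir671 and Mir7b lie at ranks 54 and 58, Mir7-2 at 181 and Mir7-1 at 214.

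Together the 3 miR-7 genes made up 0.290% ± 0.0742 of gene-assigned counts (SD, n = 2), with 0.238% in replicate 1 and 0.343% in replicate 2. The 4 genes with Mir671 took 0.580% ± 0.121. Of the miR-7 counts, 92.5% in replicate 1 and 92.8% in replicate 2 came from Mir7b. Mir7-2 gave 5.58% and 5.02% in replicates 1 and 2, and Mir7-1 gave 1.88% and 2.18%. The counts do not separate the 5p from the 3p strand of a gene, so a share of gene counts is not a share of either mature miRNA. Reads of miR-7a-5p that aligned to both Mir7-1 and Mir7-2 are outside these counts, so the share of Mir7b can be too high.

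How the reads were assigned bears directly on the 2 miR-7a genes. miR-7a-5p is the same sequence in Mir7-1 and Mir7-2, whose precursors share an unbroken stretch of 24 bases, so a read within that stretch fits both genes, while from 25 bases on every window was particular to 1 of them among the miRNA genes. Mir7b shared at most 14 bases with either of them, and Mir671 shared at most 13 bases with any miRNA gene. Reads aligned to several places were held apart from the gene counts by the authors, at 43.6% of reads in replicate 1 and 43.2% in replicate 2. How many of them were miR-7a-5p was not measured. The counts of Mir7-1 and Mir7-2 can therefore be too low, and the ratios of Mir7b and Mir671 to them too high. The ratio of Mir7-2 to Mir7-1 is uncertain as well. Mir7b and Mir671 had no window of 18 bases in common with another miRNA gene. The rest of the genome was not searched, so whether reads of these 2 genes were also held apart was not measured. None of the 4 genes had a count on the opposite strand, and the count without regard to strand equalled the stranded one for each.

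Which of these levels differ from each other? Within a library, the 6 pairs of genes were compared by an exact binomial test against equal counts, 2-sided, with Benjamini-Hochberg adjustment over the 12 comparisons in 2 libraries. Mir671 and Mir7b were the neighbours that could not be separated in both libraries. Mir671 was 1.17-fold Mir7b in replicate 1 (1.14 to 1.20, exact binomial adjusted p = 6.37e-35) and 1.02-fold in replicate 2 (0.997 to 1.04, exact binomial adjusted p = 0.0910). Their mean difference of levels lay within the SD of each. In all other comparisons Mir671 and Mir7b stood over Mir7-2, and Mir7-2 over Mir7-1, in both libraries, with adjusted p of at most 8.29e-52 in the exact binomial test, which covers counting error only.

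Mir7b was 16.6-fold Mir7-2 in replicate 1 (15.4 to 17.9) and 18.5-fold in replicate 2 (17.4 to 19.7), a mean of 17.5 ± 1.35 (SD, n = 2). Mir7-2 was 2.97-fold Mir7-1 in replicate 1 (2.56 to 3.47) and 2.30-fold in replicate 2 (2.05 to 2.58), a mean of 2.64 ± 0.478. Mir671 stood 19.1 ± 0.418-fold over Mir7-2 and 50.5 ± 10.2-fold over Mir7-1. All ratios to the 2 miR-7a genes rest on counts without the reads that aligned to both. A read of this size range spans a mature miRNA, so counts were not divided by length. Per 100 bases of precursor the mean levels were 2963 CPM for Mir671, 2422 CPM for Mir7b, 157 CPM for Mir7-2 and 55.2 CPM for Mir7-1, in the same order. On that scale Mir671 was also above Mir7b in replicate 2, by 1.15-fold (exact binomial adjusted p = 3.54e-43).

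Did the balance among the genes differ between the libraries? Ratios of 2 genes within a library do not depend on scaling. Of the 6 ratios, 4 differed between replicate 1 and replicate 2 beyond counting error in Fisher's exact test, 2-sided and adjusted over the 6 pairs. The ratio of Mir671 to Mir7b was 1.17 in replicate 1 and 1.02 in replicate 2 (Fisher's exact adjusted p = 9.70e-17), and that of Mir671 to Mir7-1 was 57.7 and 43.3 (Fisher's exact adjusted p = 0.00123). For Mir7-2 over Mir7-1 the adjusted p of Fisher's exact test was 0.0133, and for Mir7b over Mir7-2 it was 0.0494. The ratio of Mir671 to Mir7-2 was 19.4 in replicate 1 and 18.8 in replicate 2 (Fisher's exact adjusted p = 0.561), and that of Mir7b to Mir7-1 was 49.3 and 42.5 (Fisher's exact adjusted p = 0.0841). These tests compare 2 libraries and leave out the spread between samples. Pairs of other genes were not tested, so 4 of 6 cannot be set against a share over all genes and marks nothing particular to these genes.

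Each of the 4 genes was lower in replicate 1 than in replicate 2. The log2 ratio of replicate 1 over replicate 2, of CPM with a pseudocount of 1, was -0.73 for Mir7-1, -0.53 for Mir7b, -0.37 for Mir7-2 and -0.33 for Mir671. In linear terms replicate 1 had 0.596-fold the level of replicate 2 for Mir7-1 (0.506 to 0.701), 0.692-fold for Mir7b (0.676 to 0.708), 0.771-fold for Mir7-2 (0.699 to 0.851) and 0.795-fold for Mir671 (0.778 to 0.813). A 2-sided exact binomial test of the counts against the library totals, adjusted over the 472 genes whose counts averaged 10 or more, called all 4, with adjusted p of 2.59e-10, 4.00e-215, 3.41e-07 and 2.20e-91 in the order Mir7-1, Mir7b, Mir7-2 and Mir671. The same test called 59.7% of all genes tested, 39.4% lower in replicate 1 and 20.3% higher, so a call by itself sets these genes little apart.

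The size of the ratios was therefore set beside that of other genes. For the 291 genes whose counts averaged 100 or more, the median log2 ratio was -0.17, and edgeR's trimmed mean of M-values (TMM) raised every ratio by 0.17. Of all calls, 66.0% were lower in replicate 1 with the gene-assigned total, 50.7% with TMM and 48.2% with DESeq2 size factors. After the TMM shift the log2 ratios were -0.57 for Mir7-1, -0.36 for Mir7b, -0.20 for Mir7-2 and -0.16 for Mir671, and all 4 were still called. The next shares use the ratios before that shift. Among the 291 genes, 18.6% had a larger absolute log2 ratio than Mir7-1, 31.6% than Mir7b, 46.7% than Mir7-2 and 53.3% than Mir671. Since most genes were lower in replicate 1, the absolute ratio is not centred on the median. By signed ratio, 14.4% lay lower than Mir7-1, 23.0% than Mir7b, 33.3% than Mir7-2 and 37.5% than Mir671. The common biological coefficient of variation between the libraries, estimated with edgeR after TMM scaling, was 0.320. On CPM of the gene-assigned total, as a share of the mean, the SD was 35.8% for Mir7-1, 25.8% for Mir7b, 18.3% for Mir7-2 and 16.1% for Mir671. These SDs include the shift between the libraries that TMM removes, so they are not on the scale of the coefficient.

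**Figure D4:**
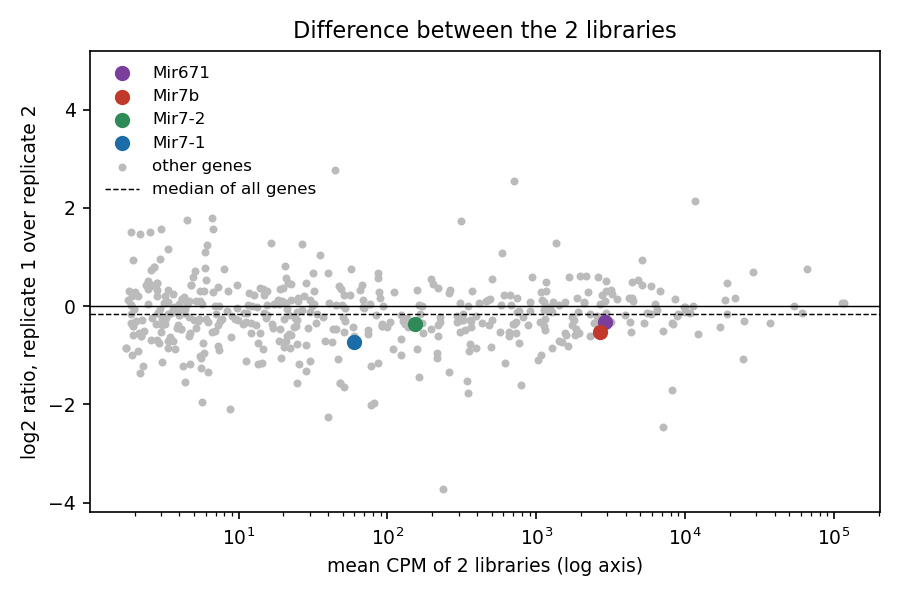
Each point is 1 of 472 miRNA genes whose counts averaged 10 or more, with mean CPM on the x axis (log axis) and the log2 ratio of replicate 1 over replicate 2 on the y axis. The 4 coloured genes lie between -0.73 and -0.33, below the dashed median of all genes at -0.16, and within the cloud of other genes.

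Which genes were most like these in level? Likeness was the distance of log2 levels over the 2 libraries, a description over 2 samples. Nearest to Mir7-1 was Mir136 of the imprinted Dlk1-Dio3 domain, with 43.6 CPM in replicate 1 and 73.1 CPM in replicate 2, followed by Mir148b (46.9 and 71.7 CPM) and Mir18 (50.2 and 67.4 CPM). Nearest to Mir7-2 were Mir873a (117 and 158 CPM in replicates 1 and 2), Mir384 and Mir16-1. Nearest to Mir7b were Mirlet7c-2 (2353 and 2841 CPM), Mir668 and Mir409, and nearest to Mir671 were Mir409 (2519 and 2949 CPM), Mir320 and Mir98. For Mir7-1 the distance to its nearest gene was 0.0450 and for Mir7b 0.189 on the log2 scale.

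Cyrano acts on miR-7 by target-directed decay, in which an extensively paired RNA leads to the loss of a miRNA. Genes of other miRNAs for which this route is known were all detected, 10 of 10. They were led by Mir221 (6464 ± 266 CPM), Mir335 (2306 ± 674 CPM) and Mir222 (1277 ± 71.8 CPM; SD, n = 2). In replicate 1, 9 of the 10 were lower and 0 higher than in replicate 2 by the binomial test, where 39.4% of all genes tested were lower, with a median log2 ratio of -0.36 against -0.16 over all 472 genes tested. The median of the miR-7 genes and Mir671 was -0.45. That split depended on the scaling, since under TMM 5 of the 10 were lower and 3 higher, with a median of -0.19. Mir335 had 1830 CPM in replicate 1 and 2782 CPM in replicate 2 (log2 ratio -0.60). Mir29b-1, whose miRNA is degraded through the RNA Nrep, had 31.6 CPM and 53.0 CPM in replicates 1 and 2 (log2 ratio -0.73), from 164 and 311 counts. Other genes of the list differed less. The log2 ratio was -0.08 for Mir221 and -0.11 for Mir222, both nearer to 0 than the median of all genes tested. For Mir30b it was 0.17, which was not called. Reads aligned to several places are outside the counts of this list too, and how many came from its genes was not measured. The CPM of Mir29b-1 is therefore that of counts assigned to 1 gene, and not the level of its mature miRNA.

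Markers of neuroendocrine and epithelial cells together lay far below Mir7b, but not below the 2 miR-7a genes. That list made up 0.0344% ± 0.000388 of the total (SD, n = 2), against 0.290% for the 3 miR-7 genes and 0.0212% for Mir7-1 and Mir7-2 alone. Mir375, which like miR-7 is known from islets and pituitary, had 247 CPM in replicate 1 and 191 CPM in replicate 2. Its mean of 219 ± 39.9 CPM (SD, n = 2) was above the means of Mir7-2 and Mir7-1, and it was higher in replicate 1. The means of these 2 miR-7a genes leave out reads that aligned to both. Mir200b (25.6 ± 14.6 CPM) and Mir200c (24.7 ± 3.58 CPM) followed, and Mir96 was at 0 in both libraries. Of the 8 genes of that list that were tested, 1 was higher and 3 were lower in replicate 1, where 20.3% of all genes tested were higher and 39.4% lower.

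The tissue label was compared with marker lists of the cells that a hippocampal sample can hold. Neuron-enriched genes made up 4.06% ± 0.227 of the total (SD, n = 2). Of 21 listed, 18 were detected, led by Mir132, Mir128-1 and Mir138-1. Not detected were Mir9-2, Mir124a-3 and Mir124a-2, with means of 1.32, 0.959 and 0.0852 CPM. Their counts leave out reads aligned to several places, so they do not show that the mature miRNAs were absent. Shares were 3.19% for astroglia-associated genes (8 of 8 detected, led by Mir23b, Mir23a and Mir29a), 0.596% for oligodendrocyte genes (2 of 4, Mir219a-2 and Mir338) and 0.557% for endothelium (1 of 2, Mir126a, with Mir126b at 0). They were 0.172% for microglia and leukocytes (6 of 7, led by Mir150, Mir146 and Mir142), 0.123% for choroid plexus and ciliated epithelium (4 of 7, led by Mir204, Mir34c and Mir449a) and 0.00494% for red blood cells (3 of 3, Mir486, Mir451a and Mir144). Reads aligned to several places are outside all these shares, and how many came from the genes of each list was not measured. The shares of different lists are therefore not on an equal footing. From these bulk samples, fewer cells of a type, less miRNA per cell and reads left out in this way cannot be told apart. Between the libraries, the share of neuron-enriched genes was 3.90% in replicate 1 and 4.22% in replicate 2. Most of the list did not follow its sum, since 9 of 18 tested genes were higher and 4 lower in replicate 1, with a median log2 ratio of 0.11 (10 higher and 3 lower with TMM). Mir132, the highest of the list, was among the lower ones, at 14669 CPM in replicate 1 and 19562 CPM in replicate 2. Astroglia-associated genes summed to 3.52% in replicate 1 and 2.87% in replicate 2, while 6 of the 8 were lower in replicate 1 and 2 higher, with a median log2 ratio of -0.58 (5 lower and 2 higher with TMM). The 2 higher ones were its most abundant, Mir23b (22183 CPM in replicate 1 and 16032 CPM in replicate 2) and Mir23a (6699.9 and 3485 CPM). The share of oligodendrocyte genes was 0.525% in replicate 1 and 0.668% in replicate 2, with 3 of 3 tested genes lower in replicate 1. Of these, Mir219a-1 had only 9 and 56 counts in replicates 1 and 2 and was not among the detected genes. Over all 472 genes tested, 39.4% were lower and 20.3% higher in replicate 1. With TMM, 141 of the 472 were lower and 137 higher. The part of these lists in the difference of the 4 genes was not tested.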

How the data were processed

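For each library the table deposited by the authors holds whole-read counts of miRNA genes in 3 columns (unstranded, on the gene's strand, on the opposite strand) and 4 rows that name no gene. The build is mm10 with GENCODE M21, per the text files deposited with the libraries. For aligner and counter, names and versions were not given in the sources used here. The 4 rows were left out of totals. Reads aligned to several places were 43.6% and 43.2% of all reads in replicates 1 and 2, unmapped reads 14.1% and 15.5%, and reads on no feature 5.04% and 4.59%. No molecular identifiers are mentioned. All 2202 gene identifiers matched GENCODE M21.

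Counts on the gene's strand were scaled to CPM. Log2 values carry a pseudocount of 1 CPM. With 1 group, edgeR 4.0.16 (R 4.3.3) gave TMM factors and a common dispersion with an intercept and no test, and DESeq2 1.42.0 gave alternatives. Exact binomial tests, Fisher's exact tests and Clopper-Pearson 95% intervals used scipy 1.17.1. The binomial test was checked on simulated counts with counting error only, so that check does not cover the spread between libraries. For edgeR's dispersion the simulated counts held such spread. Fisher's test of ratios was chosen after the counts had been seen.

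The 4 genes and the marker lists were chosen with earlier results of these data known. Named are the 4 genes, the 3 nearest in level to each, and the 3 highest genes of each list. Naf1, Mir96, Mir126b and Mir29b-1 were named with their values in view. Alternatives tried were the column, total, scaling, minimum count, pseudocount, length, likeness and each library alone.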

Additional observations from a re-analysis of the deposited data

Results flagged for a closer look

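Reads aligned to several places lie outside the gene counts that were compared, and they outnumbered those counts in both libraries. Replicate 1 had 6059074 of them, 1.17 for each gene-assigned count, and replicate 2 had 6908203, 1.18 for each. The deposited tables do not say which genes they came from. Among the 4 genes, Mir7-1 and Mir7-2 share a stretch of 24 bases that holds all of miR-7a-5p, while Mir7b and Mir671 share no 18 bases with another miRNA gene.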

How the results depend on the processing

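With the reads aligned to several places added to the total, the mean level was 27.4 CPM for Mir7-1, 70.0 CPM for Mir7-2, 1237 CPM for Mir7b and 1336 CPM for Mir671, since the same counts were divided by a larger total. Per precursor length, the mean ratio was 1.24 for Mir671 over Mir7b and 15.3 for Mir7b over Mir7-2, and Mir671 over Mir7b in replicate 2 passed the test at 1.15. No ratio changed direction under any alternative run. The log2 ratios of the 4 genes kept their sign and their call in 28 of 28 alternatives, from -0.75 to -0.15, with a highest adjusted p of 0.0137 in the exact binomial test. Part of this was fixed in advance. A pseudocount can change neither the sign nor the call, and a minimum count leaves the ratio as it was. How many of all genes kept their call was not counted. Between 253 and 284 genes were called with a minimum of 10 counts or none, and 242 with a minimum of 100. The split of directions depended on scaling. With the gene-assigned total 186 genes were lower in replicate 1 and 96 higher, with TMM 141 and 137, and with DESeq2 size factors 132 and 142. DESeq2 gave a coefficient of variation of 0.335. Of the 12 nearest genes, 11 were also nearest by relative CPM. With a match of 6 bases, an alternative chosen after seeing the data, the stretch opposite Cdr1 had 80 matches. Each library alone gave levels from 44.6 to 74.8 CPM for Mir7-1, 133 to 172 CPM for Mir7-2, 2199 to 3179 CPM for Mir7b and 2573 to 3235 CPM for Mir671. No paired analysis was possible because the 2 libraries form 1 group. Depth limits Mir7-1 most, with 231 counts in replicate 1.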
